A study of Mus musculus with 2 samples.

Results

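Urocortin 3 and somatostatin form a loop between neighbouring cells of the pancreatic islet, and the genes of that loop were followed here in single cell RNA sequencing of islets from 2-week-old mice. The 7 genes were the ligands *Ucn3* and *Sst*, the CRF receptor genes *Crhr1* and *Crhr2*, and the somatostatin receptor genes *Sstr1*, *Sstr2* and *Sstr3*, chosen by name out of 31053 listed genes. There were 2 libraries, 1 from wild type (WT) and 1 from *Npc1*-/- mice, and each pooled the islets of 3 female mice of the same genotype. The mice were C57BL/6J littermates from matings of heterozygotes, the knockout was present in the whole body, and islets were dispersed with trypsin before capture. No treatment was given. NPC1 is a protein of the late endosome and lysosome that moves cholesterol out of these compartments.

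In the islet, β cells secrete urocortin 3 together with insulin, and it acts on δ cells through the CRF receptor type 2, which couples to the stimulatory G protein and raises cAMP. The δ cells answer with somatostatin, which acts through receptors that couple to inhibitory G proteins and restrains the release of insulin and glucagon. *Ucn3* is known in the mouse as a late marker of β cell maturation. CRF receptor type 1 has been described on β cells, and its main ligands are CRF and urocortin rather than urocortin 3.

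The kept barcodes, 4628 in WT and 4269 in *Npc1*-/-, held 94096566 and 94392651 UMIs (unique molecular identifiers, each counting 1 captured RNA molecule). UMIs were summed by library and by class, and levels are given in CPM, the UMIs of the gene per 1000000 UMIs of the class. An endocrine class was set by the leading hormone of the cell, which had to reach 10% of its UMIs, so the classes were β (1833 cells in WT and 1826 in *Npc1*-/-), α (1048 and 857), δ (189 and 141) and cells led by the pancreatic polypeptide fold (PP-fold) peptides *Ppy* and *Pyy* (411 and 442). Endothelial cells (439 and 444) and stellate cells (312 and 336) were set by their own markers, which leaves 396 and 223 kept barcodes outside these classes. Checked against markers that did not set them, the β class was highest in both libraries for 7 of 7 markers, the α class for 6 of 6 and the δ class for 4 of 6, while the PP-fold class was highest for 0 of 3. For this reason the last class is called by its leading hormones only. The δ cells were mixed by the same measure, because *Ppy* and *Pyy* took 11.1% of their UMIs in WT and 11.8% in *Npc1*-/-, next to 17.6% and 17.2% for *Sst*. The targeted gene *Npc1* had 790 UMIs (8.40 CPM) in the kept WT barcodes and 391 UMIs (4.14 CPM) in the *Npc1*-/- barcodes, so transcripts were still counted there at a lower level. A total of 3 kept barcode sequences occurred in both libraries.

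Each genotype had 1 library, so no test between genotypes was made, and a difference between them cannot be told apart from a difference between the 2 libraries. Intervals are at 95% and cover counting error only. Ratios between genotypes are log2 values relative to the median gene of the class. Differences between classes were tested with edgeR (quasi-likelihood test, library as a block, Benjamini-Hochberg adjustment over 14210 genes), where each class had 1 sum in each library (n = 2 libraries).

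The ligand genes lie on chromosome 13 (*Ucn3*, GRCm38 positions 3940688 to 3945349) and chromosome 16 (*Sst*, 23889573 to 23890958), and both are on the minus strand with 2 exons in the annotated transcripts. The receptor genes lie on chromosomes 11 (*Crhr1*, 104132855 to 104175523, and *Sstr2*, 113619342 to 113626028), 6 (*Crhr2*, 55090049 to 55133016), 12 (*Sstr1*, 58211772 to 58214444) and 15 (*Sstr3*, 78537008 to 78544685). Of these genes, *Sstr2* alone overlaps another annotated gene, *Slc39a11* on the opposite strand. The DNA before the start of *Ucn3*, the gene that differed between the libraries in β cells, and of *Crhr2*, its receptor gene in δ cells, is shown from RefSeq (GRCm38.p6), 250 bases of the coding strand from 5′ to 3′. For *Sst* and *Sstr2*, a receptor gene whose level was highest in α cells, 30 bases are shown around a full cAMP response element. This is the sequence TGACGTCA through which the cAMP-responsive factor CREB binds, and capitals mark that element.
Ucn3 (chr13:3945350-3945599, minus strand): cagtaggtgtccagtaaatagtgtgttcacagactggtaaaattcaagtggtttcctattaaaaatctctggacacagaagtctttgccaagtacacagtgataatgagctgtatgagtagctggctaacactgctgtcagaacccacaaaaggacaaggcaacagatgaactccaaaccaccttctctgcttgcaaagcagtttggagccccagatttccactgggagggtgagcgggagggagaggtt
Crhr2 (chr6:55133017-55133266, minus strand): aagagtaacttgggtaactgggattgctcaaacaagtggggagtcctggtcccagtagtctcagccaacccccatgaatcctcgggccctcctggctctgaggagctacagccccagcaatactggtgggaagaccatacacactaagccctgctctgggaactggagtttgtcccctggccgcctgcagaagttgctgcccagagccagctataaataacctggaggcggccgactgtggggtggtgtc
Sst (chr16:23890874-23890903, minus strand): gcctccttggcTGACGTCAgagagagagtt
Sstr2 (chr11:113619258-113619287, plus strand): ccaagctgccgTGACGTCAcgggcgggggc

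The element begins 48 bases before the RefSeq start of *Sst* and 58 bases before that of *Sstr2*. It reads the same on both strands, and it was found in 508 of 32851 RefSeq windows of 250 bases (1.55%). None of the windows of *Ucn3*, *Crhr1* and *Crhr2*, nor the 2 windows of *Sstr3*, held it, which says only that these letters are not there. No window was matched for *Sstr1*. The shorter form TGACG, searched on both strands and contained in the full element, was found in 17.8% of all windows, and among these genes in those of *Sst*, *Sstr2* and 1 of the 2 windows of *Sstr3*. The *Crhr2* window holds TATAAA beginning 39 bases before the start, as did 12.4% of all windows on either strand. A match is a description of the sequence and not a binding site. For *Sst*, GENCODE places the start of the gene farther upstream, so that 114 bases of the RefSeq window, with the element among them, lie inside its gene model. Both windows of *Sstr3* lie inside its gene model over all 250 bases, and the *Sstr2* window overlaps *Slc39a11*.

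*Ucn3*, the sending gene, was counted almost entirely in β cells. Its level in β cells was 204 CPM (interval 201 to 208) in WT and 143 CPM (140 to 146) in *Npc1*-/-, from 11199 and 7757 UMIs. These UMIs made up 97.7% and 97.9% of all *Ucn3* UMIs of the kept barcodes. In the other 5 classes the level was between 2.95 and 11.4 CPM in WT and between 1.62 and 6.41 CPM in *Npc1*-/-. Neighbours in the order of these lower levels had overlapping intervals in each library, but the lowest and the highest did not. In WT these were δ cells (1.27 to 5.81) and stellate cells (7.55 to 16.4). In *Npc1*-/- they were endothelial cells (0.740 to 3.07) and PP-fold-led cells (4.89 to 8.26). In the test between endocrine classes, *Ucn3* was higher in β cells by 5.94 on the log2 scale than in the mean of the other 3 classes (edgeR, adjusted p = 1.62e-14), which was the 10th largest difference in that direction of the 14210 genes.

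Insulin RNA was also counted outside β cells, where free RNA from broken cells can enter a droplet, and *Ucn3* was set beside it. Per 10000 insulin UMIs, β cells held 3.94 *Ucn3* UMIs in WT (3.87 to 4.02) and 2.91 in *Npc1*-/- (2.84 to 2.97). The other 5 classes held between 2.40 and 5.35 in WT and between 1.84 and 4.56 in *Npc1*-/-. The interval did not overlap that of β cells in WT α cells (5.24, 4.28 to 6.35), *Npc1*-/- α cells (4.27, 3.21 to 5.57) and *Npc1*-/- PP-fold-led cells (4.56, 3.48 to 5.86), each with more *Ucn3* per insulin than β cells. The part of free RNA and of doublets in these counts was not tested. After each cell was thinned to 5000 UMIs, 55.7% of 1807 WT β cells and 41.5% of 1804 *Npc1*-/- β cells had a *Ucn3* UMI. The corresponding share was 4.85% and 0.971% in endothelial cells, which have no known expression of the gene, and 1.66% and 2.88% in δ cells. Without thinning, 87.5% of the WT β cells (median 30417 UMIs a cell) and 75.9% of the *Npc1*-/- β cells (median 30094) had one, against 7.29% and 2.03% of endothelial cells (medians 7835 and 10330.5).

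**Figure D1:**
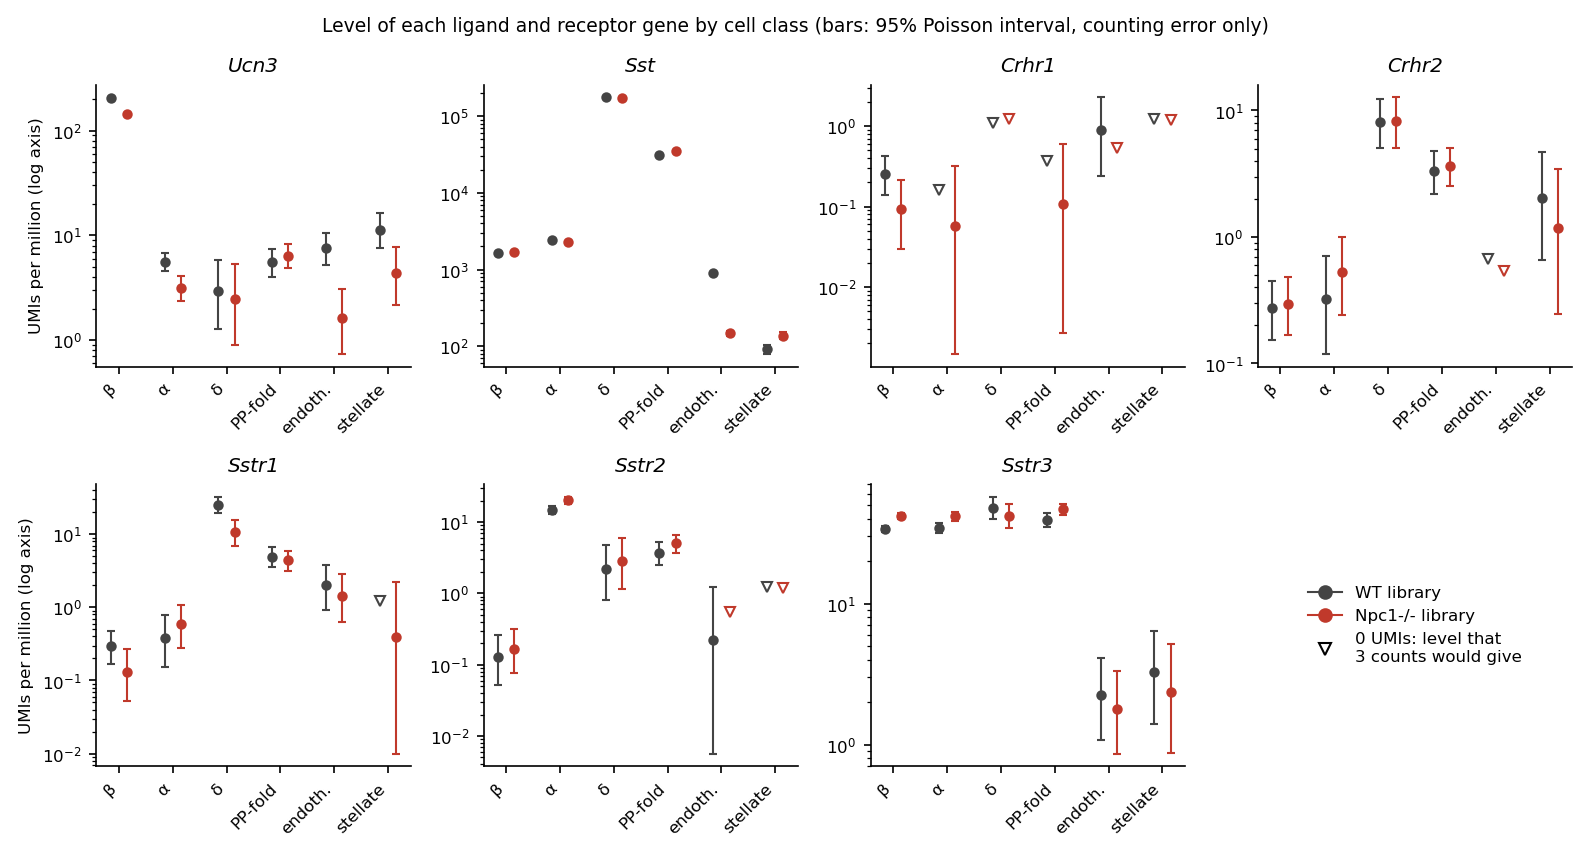
Level of each gene in CPM (log axis) by cell class on the x axis, with the WT library in grey and the *Npc1*-/- library in red, and bars for the 95% Poisson interval of counting error. *Ucn3* stands at 204 and 143 CPM in β cells, *Sst*, *Crhr2* and *Sstr1* are highest in δ cells, *Sstr2* is highest in α cells, and *Sstr3* lies between 33.9 and 47.9 CPM in each endocrine class. Open triangles stand for sums of 0 UMIs, drawn at the level that 3 counts would give.

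*Crhr2*, which encodes the receptor for urocortin 3, was found mainly in the cells that make somatostatin. The δ class had 22 UMIs in WT (8.10 CPM, 5.08 to 12.3) and 20 UMIs in *Npc1*-/- (8.22 CPM, 5.02 to 12.7). The PP-fold-led class had 27 and 34 UMIs (3.31 and 3.63 CPM) and β cells 15 and 16 UMIs (0.274 and 0.295 CPM). There were 6 and 9 UMIs in α cells and 5 and 3 UMIs in stellate cells. Endothelial cells had 0 UMIs in each library, with an interval up to 0.824 CPM in WT and 0.663 CPM in *Npc1*-/-. *Crhr2* was higher in δ cells than in the mean of the other endocrine classes by 3.04 on the log2 scale (edgeR, adjusted p = 1.05e-05), and it was also higher in the PP-fold-led class (1.74, adjusted p = 0.00130). Between genotypes the δ levels gave a log2 ratio of 0.01 with an interval from -0.94 to 0.95, so differences of nearly 2-fold in either direction were not detectable at this depth. Few δ cells had any *Crhr2* UMI after thinning, 6 of 181 in WT (3.31%) and 5 of 139 in *Npc1*-/- (3.60%).

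*Crhr1* was close to the limit of detection. β cells had 14 UMIs in WT (0.256 CPM, 0.140 to 0.429) and 5 UMIs in *Npc1*-/- (0.0923 CPM, 0.0300 to 0.215), each in a different cell. No *Crhr1* UMI was seen in δ cells, where the interval reached up to 1.36 CPM in WT and 1.52 CPM in *Npc1*-/-. All 4 UMIs of the WT endothelial class came from 1 barcode. The gene had too few counts to enter the test between classes, which leaves 6 of the 7 genes tested.

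*Sst*, which encodes somatostatin, set the δ class, and its level there is therefore a description. It took 176181 CPM in WT and 172493 CPM in *Npc1*-/- δ cells, and the log2 ratio of -0.04 lay within 0.05 of the median gene. The median δ cell held 172859 and 164336 CPM, and the range from the 10th to the 90th percentile was 122926 to 223564 CPM in WT and 122482 to 224553 CPM in *Npc1*-/-. The limit of 10% that defines the class bounds these values from below in both libraries, so nothing is read from their likeness. The δ class was not the only one with *Sst*, since PP-fold-led cells held 31230 and 35333 CPM, α cells 2449 and 2290 CPM, β cells 1630 and 1698 CPM, endothelial cells 894 and 147 CPM and stellate cells 90.9 and 137 CPM.

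In β and α cells most *Sst* lay in few barcodes. In β cells 52 WT barcodes (2.84%) and 58 *Npc1*-/- barcodes (3.18%) had at least 1% of their UMIs in *Sst*, and these held 96.6% and 95.7% of the *Sst* UMIs of the class. Of these barcodes, 48 and 41 were marked as doublets by score. In α cells 25 and 27 such barcodes held 93.2% and 92.7%, and 23 and 20 were marked. The remaining β cells had 58.2 and 75.9 CPM of *Sst*, the remaining α cells 173 and 176 CPM, and the remaining endothelial cells 69.6 and 82.8 CPM. In WT endothelial cells 4 barcodes held 92.4% of the *Sst* UMIs, against 1 barcode with 43.9% in *Npc1*-/-, where most *Sst* UMIs (56.1%) were spread over cells below 1%, and the ratio between the libraries in that class (-2.61, -2.72 to -2.51) moves with these barcodes.

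In the PP-fold-led class the cells with *Sst* were far more frequent. A share of 35.0% of the WT cells (144 of 411) and 36.7% of the *Npc1*-/- cells (162 of 442) had at least 1% *Sst*, and of these 14 and 13 were marked as doublets. These cells had 106793 and 108711 CPM of *Sst*. *Hhex*, a transcription factor needed for δ cells, was at 333 and 297 CPM in them, next to 396 and 343 CPM in the δ class and 5.02 and 9.64 CPM in the PP-fold-led cells below 1% *Sst*. *Crhr2* and *Sstr1* were likewise higher in the cells with *Sst*. *Crhr2* stood at 10.5 and 8.25 CPM in PP-fold-led cells with *Sst* and at 0.346 and 1.42 CPM in those without, and *Sstr1* at 12.6 and 12.2 CPM against 1.73 and 0.632 CPM. *Sstr2* was not, with 1.26 CPM in the cells with *Sst* and 4.67 CPM in those without in WT, and 4.95 and 5.06 CPM in *Npc1*-/-. *Sstr3* stood at 48.0 and 35.3 CPM in WT and at 57.4 and 41.3 CPM in *Npc1*-/-, and *Crhr1* had 0 UMIs in the cells with *Sst*. This split at 1% *Sst* was made after the data were seen. Among β cells, *Crhr2* had 10 UMIs in the WT barcodes with at least 1% *Sst* (5.15 CPM) and 6 in those of *Npc1*-/- (3.01 CPM), and 5 and 10 UMIs in the far more numerous other barcodes (0.0946 and 0.192 CPM). Among α cells the counts were 3 and 1 UMIs against 3 and 8, too few to separate in *Npc1*-/-, where the 1 UMI gives 1.12 CPM with an interval up to 6.21.

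**Figure D2:**
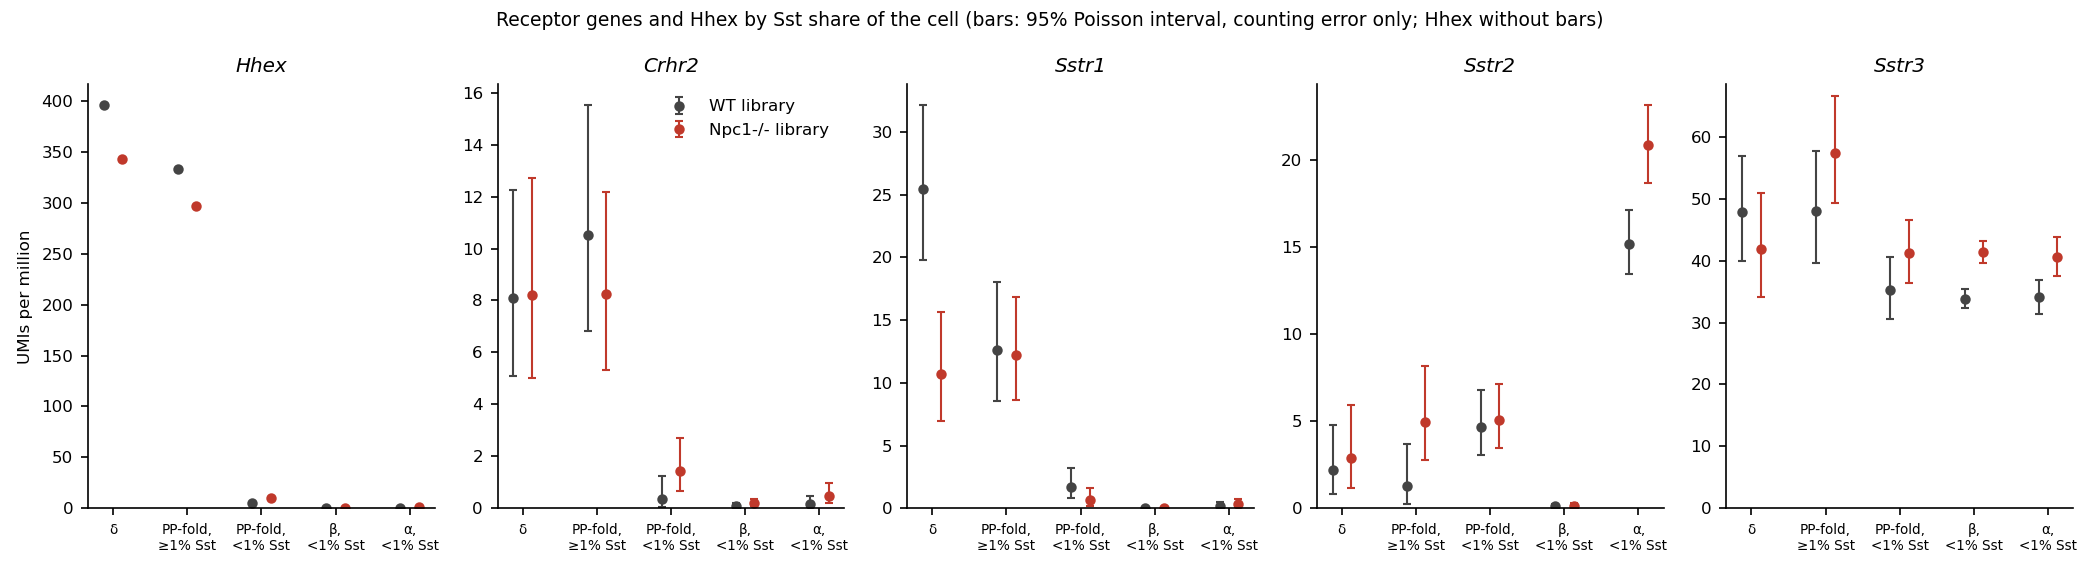
Level of *Hhex* and the receptor genes in CPM (y axis from 0, a scale for each panel) in δ cells, in PP-fold-led cells with and without 1% *Sst*, and in β and α cells without it, for the WT (grey) and *Npc1*-/- (red) libraries, with 95% Poisson intervals on the receptor genes. *Crhr2* and *Sstr1* are at 8.10 to 25.4 CPM in both groups with *Sst* and at most 1.73 CPM in the groups without, *Sstr2* is highest in α cells, and the lower bound of *Sstr3* is 30.6 CPM or more in each group.

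*Sstr1*, a receptor through which somatostatin acts, was highest in δ cells themselves, with 69 UMIs in WT (25.4 CPM, 19.8 to 32.2) and 26 UMIs in *Npc1*-/- (10.7 CPM, 6.98 to 15.7). Its difference between δ cells and the other endocrine classes was 4.09 on the log2 scale (edgeR, adjusted p = 9.10e-08), and the PP-fold-led class was higher as well (1.89, adjusted p = 8.03e-04). β cells had 0.292 and 0.129 CPM and α cells 0.379 and 0.583 CPM. In δ cells the log2 ratio between genotypes was -1.24 (-1.97 to -0.59), and the 2 intervals of the level did not overlap. After thinning, 24 of 181 WT δ cells (13.3%, 8.68 to 19.1) and 8 of 139 *Npc1*-/- δ cells (5.76%, 2.52 to 11.0) had a *Sstr1* UMI, which are intervals that do overlap. Thinned to 2500 UMIs, the order turned, with 5 of 189 cells in WT (2.65%) and 5 of 141 in *Npc1*-/- (3.55%), so no direction is read from these shares. The PP-fold-led cells with *Sst* stood at 12.6 CPM (8.52 to 18.0) and 12.2 CPM (8.60 to 16.8), and whether their ratio differs from that of the δ class was not tested. With these cells added to the δ class, 333 WT and 303 *Npc1*-/- cells gave 99 and 63 UMIs and a ratio of -0.74 (-1.22 to -0.27). With δ cells restricted to those with at least 20% *Sst* (44 in WT and 37 in *Npc1*-/-), the ratio was -2.08.

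*Sstr2* was highest in α cells, which release glucagon. The level in α cells was 14.9 CPM (13.2 to 16.7) in WT from 275 UMIs and 20.2 CPM (18.1 to 22.4) in *Npc1*-/- from 346 UMIs, and these were 82.3% and 82.2% of all UMIs of the gene. The next classes in order were the PP-fold-led cells with 3.68 and 5.02 CPM and the δ cells with 2.21 and 2.88 CPM, whose intervals overlapped each other. β cells had 7 and 9 UMIs (0.128 and 0.166 CPM), endothelial cells 1 and 0 UMIs and stellate cells 0 and 0. *Sstr2* was higher in α cells by 3.76 on the log2 scale (edgeR, adjusted p = 2.14e-10) and lower in β cells (-4.70, adjusted p = 2.14e-08). Its counts in β cells were too low to enter the test through that class. The gene entered through other classes, so the lower call in β cells was in part set by the filter. The log2 ratio between genotypes in α cells was 0.41 (0.18 to 0.64), so the *Npc1*-/- library was the higher one. At equal depth 7.70% of 1013 WT α cells and 10.8% of 841 *Npc1*-/- α cells had a *Sstr2* UMI, and their intervals (6.13 to 9.52 and 8.80 to 13.1) overlapped.

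*Sstr3* was spread over all endocrine classes and low in the others. In WT it was at 33.9 CPM in β cells (1859 UMIs), 34.3 CPM in α cells, 47.9 CPM in δ cells and 39.0 CPM in PP-fold-led cells. In *Npc1*-/- the same classes had 41.7, 41.4, 41.9 and 46.5 CPM. Endothelial cells had 2.23 and 1.80 CPM and stellate cells 3.25 and 2.37 CPM. Insulin RNA took 51.9% and 49.3% of the UMIs of β cells, which lowers the CPM of every other gene in that class. After the normalization across genes used by the test, *Sstr3* was higher in β cells than in the other endocrine classes by 0.40 on the log2 scale (edgeR, adjusted p = 3.80e-04) and lower in α cells (-0.25, adjusted p = 0.0207), while δ cells (-0.19, adjusted p = 0.247) and PP-fold-led cells (0.04, adjusted p = 0.823) were not past the threshold. The α call was lost with DESeq2 (adjusted p = 0.198) and without the library block (adjusted p = 0.0651), and over the 6 alternatives the adjusted p ranged from 0.0138 to 0.198. Between genotypes the ratio was 0.18 (0.09 to 0.27) in β cells, 0.24 (0.09 to 0.40) in α cells, 0.19 (-0.02 to 0.40) in PP-fold-led cells and -0.20 (-0.59 to 0.18) in δ cells. The δ ratio turned to 0.35 for cells with at least 20% *Sst* and to 0.0089 as a mean over cells. None of the 4 ratios in the main setting was past 0.5.

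Taking the tests between classes as a count, and without *Sst*, which helped to set the classes, members of the loop were called in either direction 5 of 5 times in the β contrast, 5 of 5 in the α contrast, 3 of 5 in the δ contrast and 4 of 5 in the PP-fold contrast. The same calls were made for 46.0%, 39.5%, 22.4% and 12.3% of all 14210 genes. The median log2 difference of these 5 members was -2.44 in the β contrast, -1.81 in the α contrast, -0.19 in the δ contrast and 1.15 in the PP-fold contrast, beside -0.0088, 0.029, -0.021 and 0.022 over all genes. The PP-fold calls include *Crhr2* and *Sstr1*, which were low in the cells of that class below 1% *Sst*. *Crhr2* stood there at 0.346 and 1.42 CPM, against 10.5 and 8.25 CPM in the cells with *Sst*. For *Sstr1* the values were 1.73 and 0.632 CPM against 12.6 and 12.2 CPM. These 2 calls are therefore not read as a trait of all PP-fold-led cells. Each contrast set 1 class against the mean of the other endocrine classes. A gene high in 1 class thus lowers its own difference in the others, and these counts and medians are not independent. A gene also entered the test only with enough counts in some of the sums. *Crhr2* and *Sstr1* were too low in β and α cells, and *Sstr2* in β cells, to enter through those classes. They entered through the classes where they were higher, so their lower calls in the β and α contrasts were in part set by the filter.

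For the genotypes, a gene was counted as past the limit when its ratio lay more than 0.5 from the median gene on the log2 scale, among those that reached 5 CPM in at least 1 library. In β cells 1 of 3 members was past it (*Ucn3*), beside 4.28% of all genes. However, *Ucn3* was at -0.48, inside the limit, once barcodes with at least 2% of their UMIs in a second hormone were left out. That removed 288 WT and 504 *Npc1*-/- β barcodes, and the PP-fold peptides counted as a hormone there. Without only the β barcodes of at least 1% *Sst* or glucagon (*Gcg*) RNA, a setting added after the data were seen, *Ucn3* was at -0.64. A member that reached 5 CPM in only 1 of the 2 libraries had to differ to some degree, and such members are not counted here. They were *Ucn3* in α cells (5.62 and 3.15 CPM), endothelial cells (7.60 and 1.62 CPM) and stellate cells (11.4 and 4.34 CPM), each higher in WT, and *Sstr2* in PP-fold-led cells (3.68 and 5.02 CPM). Of the others, 0 of 3 were past the limit in α cells, 1 of 4 in δ cells (*Sstr1*) and 0 of 3 in PP-fold-led cells, beside 2.60%, 16.3% and 6.74% of all genes. In endothelial and stellate cells *Sst* was the 1 member left and was past it, lower and higher in *Npc1*-/-, beside 9.20% and 16.3%. In *Npc1*-/- stellate cells 1 barcode held 27.3% of the *Sst* UMIs, and the others had 100 CPM, beside 90.9 CPM in WT. The shares of all genes do include genes that reached 5 CPM in only 1 library. The share was 16.3% in δ and in stellate cells, the classes with the fewest UMIs, and 2.60% and 4.28% in α and β cells. Whether the share depends on the UMIs of a class was not tested.

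**Figure D3:**
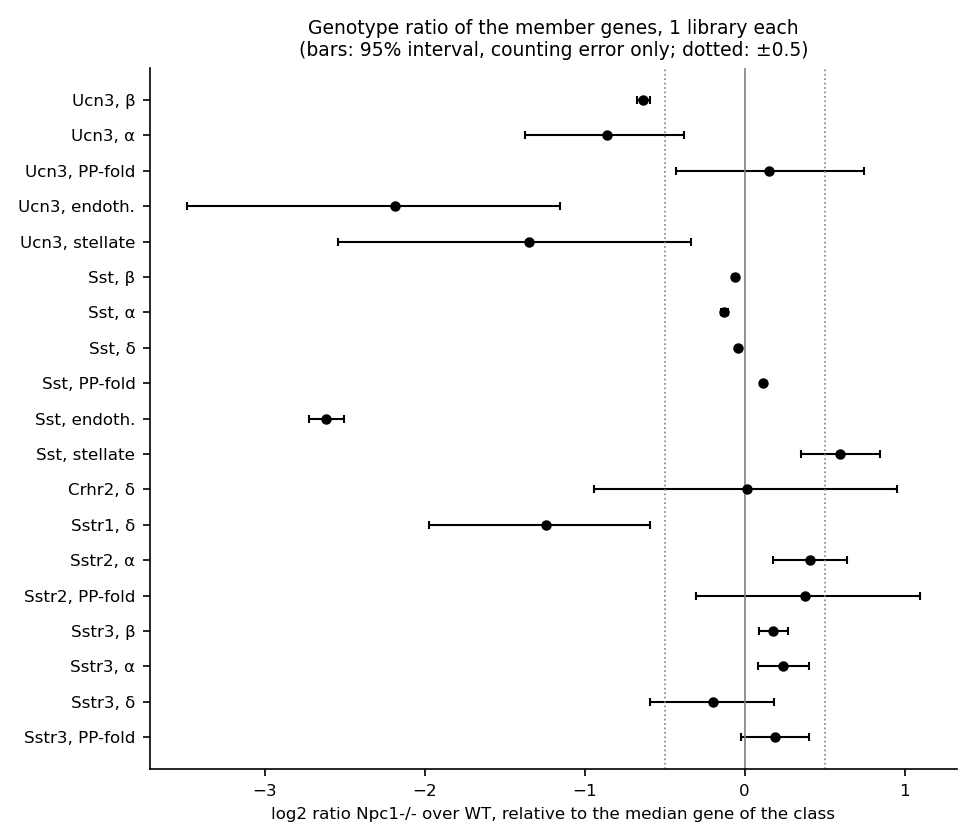
Log2 ratio of *Npc1*-/- over WT relative to the median gene of the class (x axis) for each gene and class that reached 5 CPM in at least 1 library (y axis), 1 library per genotype, with 95% intervals of counting error and dotted lines at 0.5 on both sides. *Ucn3* in β cells lies at -0.63 and *Sstr1* in δ cells at -1.24, whereas *Crhr2* in δ cells lies at 0.01 with an interval from -0.94 to 0.95.

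*Ucn3* in β cells gave a ratio of -0.63 (-0.67 to -0.59), and 1.11% of the 8858 genes of that comparison had a lower one. The difference was spread over the cells. The median β cell had 5 *Ucn3* UMIs (166 CPM) in WT and 3 (98.6 CPM) in *Npc1*-/-, and the cells without any made up 12.5% and 24.1%. Cells with at least 10 *Ucn3* UMIs were 22.7% of WT and 13.2% of *Npc1*-/- β cells. The highest count in 1 cell was 42 and 38.

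The level of *Ucn3* differed with the PP-fold peptides that a β cell also carried. In WT it was 277 CPM in the 868 β cells with under 0.3% *Ppy* and *Pyy* UMIs, 174 CPM between 0.3% and 1% (474 cells), 97.5 CPM between 1% and 3% (335 cells) and 71.3 CPM in the 156 cells at 3% and over. In *Npc1*-/- the same bins held 239, 137, 85.2 and 41.5 CPM, from 587, 418, 505 and 316 cells. Both libraries thus had the highest *Ucn3* in β cells with the least PP-fold RNA. The cells under 0.3% were 47.4% of β cells in WT and 32.1% in *Npc1*-/-, and those at 3% and over were 8.51% and 17.3%.

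Within each bin *Ucn3* was lower in the *Npc1*-/- library. The linear ratio of the CPM was 0.861 (0.830 to 0.893), 0.787 (0.739 to 0.837), 0.873 (0.800 to 0.953) and 0.581 (0.498 to 0.678) from the lowest to the highest bin. Over all β cells the same linear ratio was 0.701, and with the *Npc1*-/- cells weighted to the spread of PP-fold shares in WT it was 0.838 (0.814 to 0.863). With quartiles of the PP-fold share in place of these bins it was 0.839. *Sstr3* showed no such order, with 33.3, 35.7, 33.0 and 34.2 CPM in the 4 WT bins and 42.4, 41.7, 37.7 and 47.0 CPM in the *Npc1*-/- bins.

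*Mafa*, a transcription factor that activates the insulin gene in mature β cells, had a level of 198 CPM in the β cells of WT and 185 CPM in those of *Npc1*-/- (ratio -0.21, -0.25 to -0.18). As a plain CPM ratio this was -0.095 on the log2 scale. In plain CPM the order was the opposite within 3 of 4 bins of PP-fold share. The linear *Mafa* ratios were 1.10 (1.06 to 1.14), 1.08 (1.02 to 1.14) and 1.22 (1.13 to 1.33), and 0.928 (0.799 to 1.08) at 3% and over. These bin ratios are not relative to the median gene, which stood at 0.12 on the log2 scale over all β cells. After thinning to 5000 UMIs, 51.7% of WT and 46.3% of *Npc1*-/- β cells had a *Mafa* UMI. Among those with one, *Ucn3* was seen in 64.0% (60.8 to 67.0) in WT and 54.3% (50.9 to 57.7) in *Npc1*-/-, and among those without, in 46.8% (43.4 to 50.2) and 30.5% (27.6 to 33.5). The linear ratio of *Ucn3* CPM between genotypes was 0.836 (0.763 to 0.915) in β cells with a *Mafa* UMI and 0.583 (0.516 to 0.659) in those without. *Ucn3* was therefore lower in *Npc1*-/- on both sides of this split. At 5000 UMIs a cell, a missing *Mafa* UMI does not show that the gene was off, so the split is one of detection.

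**Figure D4:**
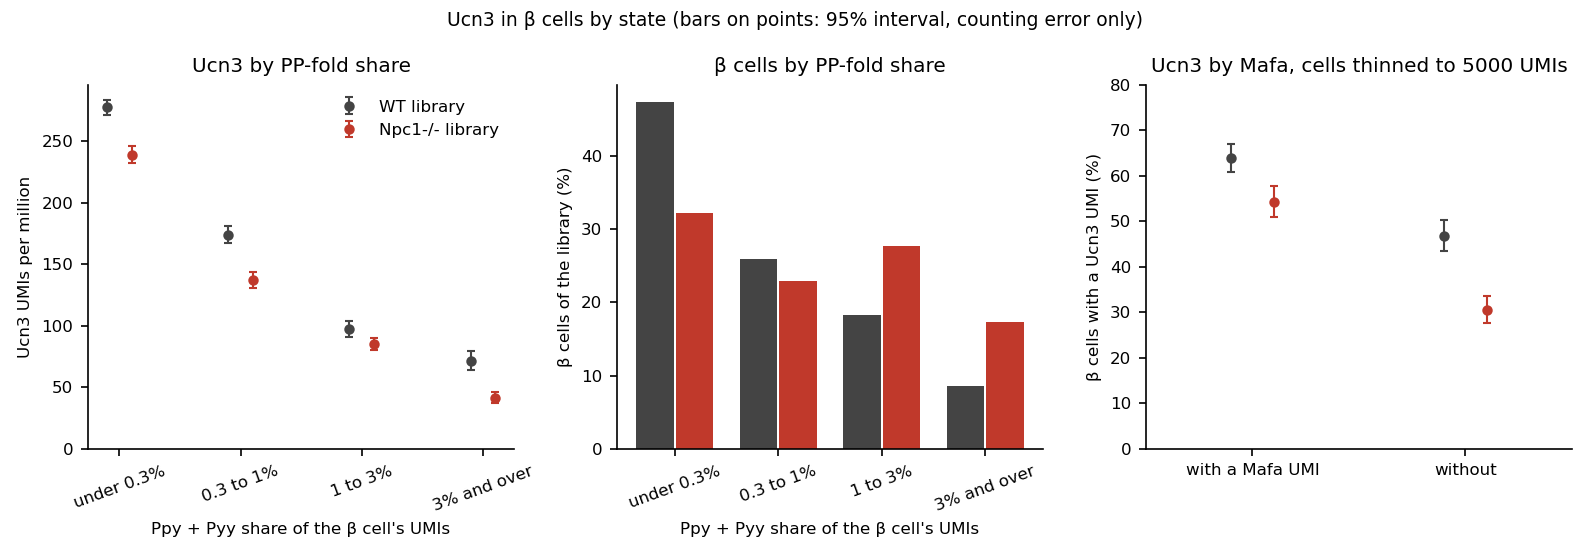
Left, *Ucn3* in CPM (y axis) in β cells by the share of *Ppy* and *Pyy* UMIs (x axis), middle, the percent of β cells in each bin, and right, the percent of β cells with a *Ucn3* UMI after thinning to 5000 UMIs, by whether a *Mafa* UMI was seen. Grey is the WT and red the *Npc1*-/- library, and bars on points are 95% intervals of counting error. *Ucn3* goes from 277 to 71.3 CPM in WT and from 239 to 41.5 CPM in *Npc1*-/- over the bins.

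Some other genes had a pattern over the 12 sums of class and library much like that of a member, by Pearson's r of log2(CPM + 1) among 8920 genes. As the 12 sums come from 2 libraries and share their classes, these values are descriptions. *Ins1*, *Ins2* and *Sst* also helped to set the classes, so the values that involve them follow in part from that rule. For *Ucn3* the closest genes were *Ins1* (0.984), *Slc2a2*, the glucose transporter of β cells (0.984), and *Ins2* (0.983). For *Sst* they were *Neurog3* (0.993), *Pcdh15* (0.992) and *Cdhr2* (0.986), and for *Crhr2* *Ptprz1* (0.986), *Ly6h* (0.983) and *Sox9* (0.978). *Sstr1* was closest to *Gpm6a* (0.974), *Sdhaf4* (0.959) and *Ctso* (0.955), *Sstr2* to *Pla2g12a* (0.990), *Gm20554* (0.978) and *Nxph1* (0.978), and *Sstr3* to *Lrp11* (0.998), *Disp2* (0.997) and *Slc37a1* (0.995).

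The other ligands and receptors of both families were nearly absent. Of the CRF family, *Crh* had 0 UMIs in all classes, *Ucn* 1 UMI and *Ucn2* 5 UMIs in all, each in *Npc1*-/-, and *Crhbp*, which encodes a binding protein for CRF, had 13 UMIs in WT and 29 UMIs in *Npc1*-/- β cells. Of the somatostatin family, *Sstr4* had 0 UMIs, *Sstr5* 4 and 5 UMIs in β cells and 1 and 3 in α cells, and *Cort*, the gene for cortistatin, at most 4 UMIs in any class. None of these 7 genes reached 5 CPM in any class.

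The genes that carry the receptors' signal inside the cell were taken from lists chosen by function. Of 9 genes for inhibitory G protein subunits and the potassium channels they open, 5 had at least 5 CPM in β cells, 6 in α, 6 in δ and 6 in PP-fold-led cells. Past 0.5 between genotypes were 0 of them in β, α and PP-fold-led cells and 1 in δ cells (*Kcnj6*, 17 and 22 UMIs, ratio 0.51, -0.46 to 1.52), beside 4.28%, 2.60%, 6.74% and 16.3% of all genes in these classes. Their median ratio was 0.08 in β, 0.00 in α, 0.03 in δ and -0.03 in PP-fold-led cells, where the median of all genes is 0 by construction. The inhibitory subunit *Gnai1* stood at 24.7 and 33.0 CPM in β cells (0.30, 0.20 to 0.40).

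Of 20 genes for the stimulatory G protein, adenylyl cyclases, protein kinase A and other cAMP targets, 11 had at least 5 CPM in β cells, 12 in α, 13 in δ and 12 in PP-fold-led cells. The only one past 0.5 in these 4 classes was *Adcy8* in δ cells (22 and 35 UMIs, 0.81, 0.01 to 1.66), 1 of 13 beside 16.3% of all genes. Adenylyl cyclases make cAMP. *Adcy6* stood at 8.71 and 13.1 CPM in β cells (0.47, 0.30 to 0.64) and *Adcy1* at 24.8 and 34.5 CPM in α cells (0.45, 0.27 to 0.63). The *Adcy6* ratio was also above 0 in PP-fold-led cells (0.48, 0.20 to 0.77) and α cells (0.19, 0.03 to 0.36). In δ cells it was -0.08 (-0.56 to 0.40). The stimulatory subunit *Gnas* was lower in *Npc1*-/- in each of the 4 endocrine classes. In α cells it had 6659 and 5647 CPM (-0.27, -0.28 to -0.25). Its ratio was -0.17 in β, -0.18 in PP-fold-led and -0.08 in δ cells. In the test between classes *Adcy2*, *Adcy8* and *Rapgef3* were called higher in δ cells and *Adcy1* and *Adcy9* lower. These were 5 of 19 tested in either direction, beside 22.4% of all genes. *Adcy1* had 0 and 1 UMIs in δ cells and entered the test through other classes. Its lower call was thus in part set by the filter. All 3 genes higher in δ cells were also called higher in the PP-fold contrast, by 2.00, 2.37 and 1.15 on the log2 scale. That contrast called 3 of 19 higher and 3 lower, beside 12.3% of all genes.

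Of 9 symbols listed for receptor kinases and arrestins, which switch receptors off, 7 were in the files, and 5 had at least 5 CPM in β cells. The kinase gene *Grk3* was past 0.5 in β cells, with 38.8 and 59.7 CPM (0.50, 0.42 to 0.58), 1 of 5 beside 4.28% of all genes, and no gene of this list was past it in α, δ or PP-fold-led cells. *Grk3* was also called higher in β cells in the test between classes. In endothelial cells 2 of 5, 1 of 13 and 1 of 7 genes of the 3 lists were past 0.5, beside 9.20% of all genes, and in stellate cells 1 of 5, 1 of 16 and 2 of 7, beside 16.3%. Among these, *Gnaz* in endothelial cells (5.14 and 1.98 CPM) reached 5 CPM in only 1 library and so had to differ to some degree. Unlike such members of the loop, it stays in this count.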

How the data were processed

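For each library, a matrix of raw counts (UMIs by gene and barcode) was deposited, made with Cell Ranger 3.1.0 on mm10 and without normalization. Seurat 4.0.3 is also named in the submitters' processing notes. The labels name version 3 chemistry and the paper version 2, and the chemistry was not settled here. The study's cell filters had not been applied to the files. A barcode was kept if over 1000 genes were seen, its UMIs numbered below 50000, and mitochondrial and haemoglobin RNA made up less than 10% and no more than 0.1% of them (54.0% of 8569 barcodes in WT and 55.8% of 7646 in *Npc1*-/-). Doublets stayed in the main values, and their removal by Scrublet score was an alternative (317 barcodes in WT and 261 in *Npc1*-/-, at the expected rate, because the tool's own threshold marked 65 and 40).

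Counts were summed by class and library, with exact Poisson intervals for levels, exact (Clopper-Pearson) intervals for shares and conditional binomial intervals for ratios, to which 0.5 counts were added. Where a sum was 0, the text gives the upper bound of the Poisson interval, and the figure of levels shows the level that 3 counts would give. Ratios were read relative to the median gene of genes that reached 5 CPM, and CPM are not scaled by gene length because UMIs count transcript ends, so levels were compared between classes and not between genes. Class contrasts used edgeR 4.0.16 (TMM, filterByExpr, quasi-likelihood) on 12 sums, with DESeq2 1.42.0 as an alternative. Shares were thinned to 5000 UMIs a cell. The scripts used Python 3.11.15 (scanpy 1.11.5, matplotlib 3.10.9, pandas 2.3.3, scipy 1.17.1, numpy 2.4.6) and R 4.3.3, and were tested on simulated data. Gene models are from GENCODE vM21 (GRCm38) and upstream sequences from RefSeq (GRCm38.p6).

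The genes and lists were chosen with earlier results of these data known. Named were the 7 genes, *Npc1*, *Mafa*, genes of the listed pathways and, for each gene with at least 100 UMIs, the 3 genes most alike over the sums. *Hhex* is named as a δ cell marker. Protein measurements of the study were not analysed here.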

Additional observations from a re-analysis of the deposited data

Results flagged for a closer look

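Barcodes that the comparisons did not use also held these genes. Kept barcodes outside the 6 classes had 8250 CPM of *Sst* in WT and 11500 CPM in *Npc1*-/-, and 18.3 and 53.9 CPM of *Sstr3*. Barcodes with 50000 UMIs or more had 4690 and 5590 CPM of *Sst* and 31.9 and 44.2 CPM of *Sstr3*. For these genes the *Npc1*-/- library was above the WT library in both sets, and the difference was not tested, as each genotype had 1 library. *Ucn3* went the other way in both, with 13.3 and 8.77 CPM and with 227 and 156 CPM. Its intervals overlapped outside the classes (9.50 to 18.1 and 5.83 to 12.7). *Sstr2*, *Crhr2* and *Sstr1* had few UMIs, and their intervals overlapped between the libraries in both sets, so no direction is read. Outside the classes *Sstr2* had 15 and 12 UMIs, *Crhr2* 2 and 14 and *Sstr1* 7 and 23. In the barcodes with 50000 UMIs or more the counts were 14 and 24, 3 and 15, and 7 and 15. The barcodes outside the classes had a median of 5635.5 UMIs in WT and 13647 in *Npc1*-/-, and the cells in them were not compared.

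The log2 ratio of *Sst* between genotypes, relative to the median gene, had a different sign in different classes. It was 0.12 in PP-fold-led cells and 0.60 in stellate cells, and -0.06 in β cells, -0.13 in α cells, -0.04 in δ cells and -2.61 in endothelial cells. The difference between classes was not tested. Single barcodes weigh on these values, since in WT endothelial cells 4 barcodes with at least 1% *Sst* held 92.4% of the *Sst* UMIs. In *Npc1*-/- stellate cells 1 such barcode held 27.3%, and the cells below 1% had 100 CPM, beside 90.9 CPM in WT.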

How the results depend on the processing

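The log2 ratio of *Ucn3* between genotypes in β cells (-0.63) was -0.75 with the stricter cell filter, -0.48 without barcodes that held a second hormone, -0.51 as a plain CPM ratio and -0.57 with totals that left out the hormone genes, and it stayed below 0 under the 16 alternatives run for it, though inside the limit of 0.5 without the barcodes with a second hormone. That of *Sstr1* in δ cells was -2.08 with a hormone limit of 20%, and that of *Sstr3* in β cells was 0.30 as a plain CPM ratio. The ratio of *Sst* changed sign in δ cells with the limit of 20% (0.065) and as a mean over cells (0.010), and in PP-fold-led cells without barcodes with a second hormone (-0.65), and that of *Sstr3* in δ cells changed sign with the limit of 20% (0.35), as a mean over cells (0.0089) and with PP-fold-led *Sst* cells added (0.085). The order of the *Sstr1* shares in δ cells turned when thinned to 2500 UMIs. In the PP-fold contrast 1747 genes were called, against 1060 with DESeq2 and 1102 without the library block, and the cause was not tested. The other contrasts stayed within 1.5 times their count under each alternative run, and *Ucn3* in β, *Crhr2* and *Sstr1* in δ and *Sstr2* in α cells stayed called. Leaving out barcodes with a second hormone could not be run for δ cells or the class contrasts, because 1 WT and 0 *Npc1*-/- δ cells were left. No replicate could be left out, with 1 library per genotype. Depth limits *Crhr1* and *Crhr2* most. The split of barcodes at 1% *Sst*, and the values without the barcode with most UMIs of a gene, were added after the data were seen.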
